A study of Homo sapiens with 12 samples.

Results

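The MAX network was followed in 12 RNA-seq libraries of human prostate cancer cells from a study of 2 histone demethylase inhibitors. The 9 genes described were MYC, its neighbour PVT1, MYCN, MYCL, MAX, MXD1, MXD3, MXD4 and MNT. They were found by symbol among the 60675 genes listed for each library. PVT1 was selected on its measured rise in C4-2 cells given both inhibitors, and the question asked was whether MYC rose with it. The other members were chosen by name, but with earlier results of these data known, as were the gene lists used below. Since PVT1 was selected on its values in C4-2 given both inhibitors, its values that use those libraries are given as a description, with no test. The cells were labelled LNCaP, known as a hormone-dependent line, and LNCaP:C42 (C4-2), known as its castration-resistant derivative, each 1 established line grown in charcoal-stripped serum. Every culture received R1881, a synthetic androgen, at 1 nM for 72 h, so none lacked androgen. There were 6 groups of 2 libraries. The 4 C4-2 groups had R1881 alone, added namoline (a KDM1A inhibitor, 50 µM), added TCE-5002 (a KDM7A inhibitor), or both inhibitors at once (the combination). The 2 LNCaP groups had R1881 alone or the combination. The series description lists TCE-5002 at 100 µM while the study's methods give the same dose as namoline, so its dose is uncertain here. The study states that TCE-5002 also targets KDM7B/PHF8 and KDM2A, so its name stands for the compound and not for loss of KDM7A activity alone.

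Library totals ran from 14791602 to 20690819 counts. For LNCaP combination replicate 1 the label names both inhibitors, whereas the file header names namoline and not TCE-5002, so the LNCaP values the account turns on are also given without it. No library repeated another, and the replicates of C4-2 with TCE-5002 differed most, with a chi-square per gene of 27.9 against 3.61 to 9.76 in the other groups. Fixed markers were read in each line. All 7 luminal markers read, KLK3 among them, reached 1 CPM in every library, but their summed level was 2089.0 to 3875.9 CPM in C4-2 and 310.4 to 741.6 CPM in the libraries labelled LNCaP. Summed mesenchymal markers went the other way, at 63.2 to 102.0 CPM in C4-2 and 722.8 to 867.0 CPM in the libraries labelled LNCaP. With R1881 alone, the luminal surface protein EPCAM was at 138.6 ± 0.0488 CPM in C4-2 and 3.75 ± 0.352 CPM in the libraries labelled LNCaP, and the mesenchymal filament gene VIM at 2.45 ± 0.246 and 685.8 ± 64.9 CPM. KLK3 was at 216.7 ± 15.7 and 375.9 ± 29.5 CPM. VIM made up most of the mesenchymal sum in the libraries labelled LNCaP, and CDH2, ZEB1 and FN1 were also higher there with R1881. COL1A1 went the other way, at 50.1 ± 0.928 CPM in C4-2 and 4.44 ± 0.623 CPM in the libraries labelled LNCaP. COL1A2, LUM and DCN were near 0 in both. The identity of the culture labelled LNCaP is therefore uncertain and was not tested, and the name stands for the label in every comparison of the lines. Leukocyte and endothelial markers summed to at most 8.71 CPM. Line and any difference in handling cannot be told apart, and in bulk RNA neither can fewer cells of a type and less RNA per cell.

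MYC is a transcription factor that binds DNA, chiefly at E-box sequences, as a pair with MAX, and is best known for raising genes of ribosome production and metabolism. MAX also pairs with the MXD proteins, MNT and MGA, which repress the same kind of site, so the network's output depends on which partners are present. PVT1 is a long non-coding RNA gene beside MYC on chromosome 8 that is often gained together with it in cancer, and PVT1 RNA has been linked to the stability of MYC protein. Protein was not measured in these libraries.

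MYC did not follow PVT1. In C4-2 cells PVT1 was about level under either inhibitor alone and 6.92-fold higher under the combination, whereas MYC was higher under each inhibitor alone and lower under the combination. Levels are CPM (counts scaled to a common library size by TMM over the 12 libraries), and errors are SD over 2 libraries.

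PVT1 (ENSG00000249859, GRCh38 chr8:127794533-128101253, plus strand, a lincRNA with 21 merged exons and 9.65% of exon bases shared with other genes) measured 23.0 and 23.8 CPM in C4-2 with R1881 alone, 25.1 and 24.5 CPM with namoline, and 19.1 and 20.7 CPM with TCE-5002. The combination libraries measured 158.2 and 170.8 CPM, and both stood above the other 10 libraries of the series. In the libraries labelled LNCaP it was 26.6 and 23.6 CPM with R1881 and 15.6 and 13.9 CPM with the combination, so the treated pair lay below the untreated pair. The mean in the C4-2 combination was 164.5 ± 8.87 CPM (SD, n = 2) against 23.4 ± 0.557 CPM with R1881, a log2 fold change of 2.79 that had chosen the gene. The difference was 2.72 against namoline and 3.02 against TCE-5002, again as a description.

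Namoline alone left PVT1 at a log2 fold change of 0.07 (SE 0.12, 95% interval -0.19 to 0.32, adjusted p = 0.692, edgeR quasi-likelihood test), and TCE-5002 alone gave -0.23 (SE 0.12, 95% interval -0.49 to 0.02, adjusted p = 0.147). Neither inhibitor moved PVT1 past the threshold, an adjusted p under 0.05 together with a change of at least 2-fold. Both tests use the C4-2 R1881 libraries, the control of the rise that chose PVT1, so they are not independent of that choice. For LNCaP the combination gave -0.71 (SE 0.14, adjusted p = 7.05e-05), a decrease of 1.64-fold that passed the adjusted p but not the fold limit. It was -0.80 (adjusted p = 2.2e-06) without LNCaP combination replicate 1. With R1881 alone the 2 lines held the same range of PVT1, at a difference of -0.07 (95% interval -0.29 to 0.14, adjusted p = 0.53). That comparison has the same limit, since it also uses the C4-2 R1881 libraries.

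MYC (ENSG00000136997, GRCh38 chr8:127735434-127741434, plus strand, 3 merged exons, starting 59.1 kb before PVT1) measured 86.7 and 96.0 CPM in C4-2 with R1881 alone. It measured 193.5 and 215.2 CPM with namoline and 182.6 and 186.5 CPM with TCE-5002. The combination libraries measured 45.7 and 44.4 CPM, the lowest of the 12. Both single-treatment pairs thus lay wholly above the R1881 pair and the combination pair wholly below it.

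MYC rose with namoline by a log2 fold change of 1.15 (SE 0.11, adjusted p = 2.61e-06, edgeR) and with TCE-5002 by 1.02 (SE 0.11, adjusted p = 1.15e-05). It fell with the combination by 1.04 on the log2 scale (SE 0.11, adjusted p = 4.15e-06), which is 2.06-fold. The calls with TCE-5002 and with the combination lie at the fold limit. The change with TCE-5002 was 0.95 without C4-2 R1881 replicate 1 and 0.93 after a correction for GC content, and the fall with the combination was -0.98 without C4-2 R1881 replicate 2, each still past the adjusted p.

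Adding one inhibitor to the other lowered MYC more steeply. MYC was 4.57-fold lower in the combination than with namoline (log2 fold change -2.19, SE 0.11, adjusted p = 5.02e-09) and 4.17-fold lower than with TCE-5002 (-2.06, SE 0.11, adjusted p = 7.26e-09). The interaction, which is the combination minus both single treatments plus R1881 on the log2 scale, was -3.21 (SE 0.16, 95% interval -3.54 to -2.87, adjusted p = 2.67e-09). The corresponding value of PVT1 was 2.95, as a description.

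**Figure D1:**
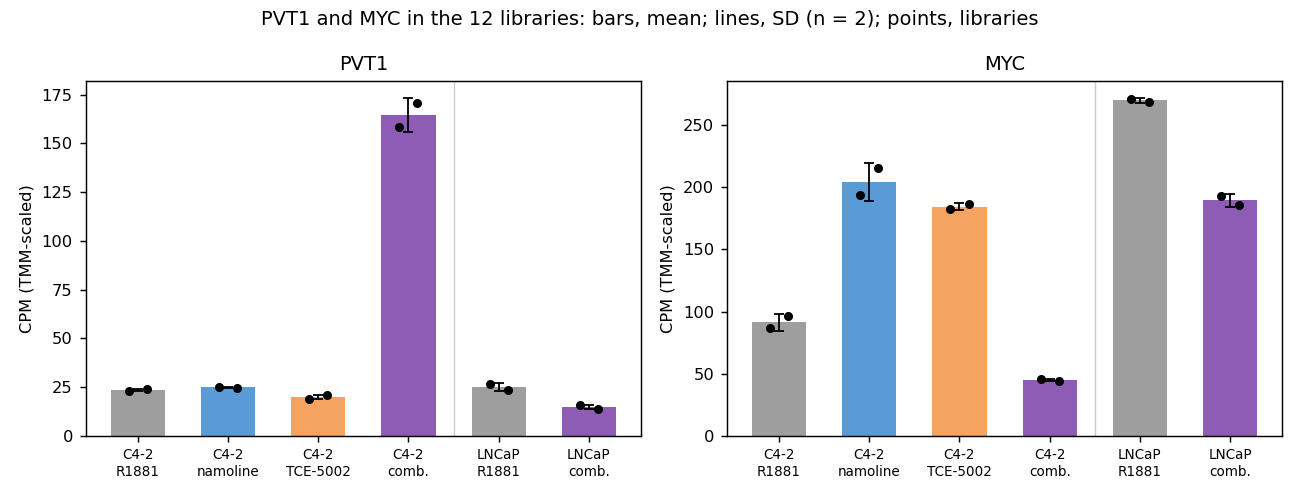
PVT1 (left) and MYC (right) in CPM for the 6 groups, with bars for the mean, lines for the SD of 2 libraries and points for the libraries. PVT1 stands at 158.2 and 170.8 CPM in the C4-2 combination and at 13.9 to 26.6 CPM in the other libraries, while MYC is lowest in the C4-2 combination at 44.4 and 45.7 CPM and highest in LNCaP with R1881.

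The ratio of PVT1 to MYC counts, which does not depend on library scaling, moved accordingly. It was 0.265 and 0.248 in C4-2 with R1881 alone, 0.13 and 0.114 with namoline and 0.105 and 0.111 with TCE-5002. In the combination it was 3.46 and 3.85, so PVT1 had more counts than MYC in those libraries alone. The libraries labelled LNCaP ranged from 0.0745 to 0.0979. Across the 8 C4-2 libraries the Pearson r of log2 CPM between PVT1 and MYC was -0.86, which ranked MYC 9458 of 10491 genes compared. These points share the contrast that chose PVT1, and the value is a description.

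In the libraries labelled LNCaP, MYC measured 271.4 and 268.6 CPM with R1881 and 193.4 and 185.8 CPM with the combination. The treated libraries lay below the untreated ones, and the change of -0.45 (SE 0.10, adjusted p = 3.54e-04) was 1.37-fold, under the fold limit. Without LNCaP combination replicate 1 it was -0.48 (adjusted p = 7.89e-05). The fall in C4-2 exceeded that in LNCaP by 0.64 on the log2 scale (SE 0.12, adjusted p = 9.34e-05, tested as an interaction; -0.63 without LNCaP combination replicate 1). With R1881 alone MYC was 2.9-fold lower in C4-2 than in LNCaP (log2 difference -1.54, SE 0.08, adjusted p = 4.08e-14). PVT1 and MYC were therefore both lower with the combination in LNCaP and stood on opposite sides of R1881 in C4-2, where the PVT1 effect exceeded that in LNCaP by 3.45 on the log2 scale as a description.

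Per kilobase of merged exon, MYC held the highest mean level of the 9 genes in C4-2 with R1881, at 30.4 ± 2.19 CPM per kb. MXD4 at 12.6 ± 0.338 and MAX at 12.1 ± 1.60 CPM per kb came next and did not differ beyond their spread. MYCL at 4.68 ± 0.104, PVT1 at 4.26 ± 0.101 and MNT at 4.22 ± 0.28 CPM per kb followed, with PVT1 and MNT within each other's spread. MXD3 at 2.39 ± 0.22 and MXD1 at 2.21 ± 0.172 CPM per kb were not separated either, and MYCN was at the limit of detection. In the combination PVT1 reached 29.9 ± 1.61 CPM per kb against 15.0 ± 0.311 for MYC, 11.5 ± 0.251 for MAX and 7.35 ± 0.817 for MXD4.

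MYCN and MYCL encode the other MYC proteins, which also pair with MAX. MYCN, best known from neuroblastoma and neuroendocrine tumours, had 0 or 1 count in each of the 8 C4-2 libraries, where 3 counts correspond to 0.14 to 0.195 CPM, and was removed there by the filter on low counts. It had 26 and 26 counts (1.21 and 1.18 CPM) in LNCaP with R1881 and 8 and 9 counts (0.484 and 0.457 CPM) with the combination, so the treated pair was lower. Summed neuroendocrine markers were 1.38 to 3.37 CPM in C4-2 and 19.0 to 28.8 CPM in the libraries labelled LNCaP, and their part in the MYCN level was not tested. That change of -1.28 (SE 0.51, adjusted p = 0.0319) rests on few counts, and the adjusted p was 0.102 without LNCaP combination replicate 1 and 0.138 with DESeq2.

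MYCL (ENSG00000116990) measured 24.1 and 23.3 CPM in C4-2 with R1881, 13.8 and 13.1 CPM with namoline, 15.3 and 16.0 CPM with TCE-5002, and 12.5 and 10.2 CPM with the combination. All 6 treated libraries lay below both controls. It fell by 1.09 on the log2 scale with the combination (SE 0.15, adjusted p = 4.67e-05; -0.93 without C4-2 combination replicate 2), and the changes with namoline (-0.83, adjusted p = 6.75e-04) and TCE-5002 (-0.60, adjusted p = 0.0059) stayed under the fold limit. In the libraries labelled LNCaP it went from 14.0 and 17.1 CPM to 25.2 and 18.8 CPM, a change of 0.55 (adjusted p = 0.00284) that was 0.32 (adjusted p = 0.0803) without combination replicate 1. The combination effect on MYCL differed between the lines by -1.68 (SE 0.21, adjusted p = 6.75e-07; -1.48 without LNCaP combination replicate 1). MYCL and MYC thus stood on opposite sides of R1881 under the single treatments in C4-2, and both fell under the combination.

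MAX, the shared partner, changed least. Its 8 C4-2 libraries ranged from 48.5 to 58.5 CPM, and its log2 fold change was 0.03 with namoline, 0.03 with TCE-5002 and -0.09 with the combination, with 95% intervals from -0.35 to 0.29. The LNCaP levels were 75.6 and 72.5 CPM with R1881 and 65.0 and 64.1 CPM with the combination (-0.14, adjusted p = 0.27; -0.15 without combination replicate 1). All 4 of these intervals lay well inside the 2-fold limits.

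**Figure D2:**
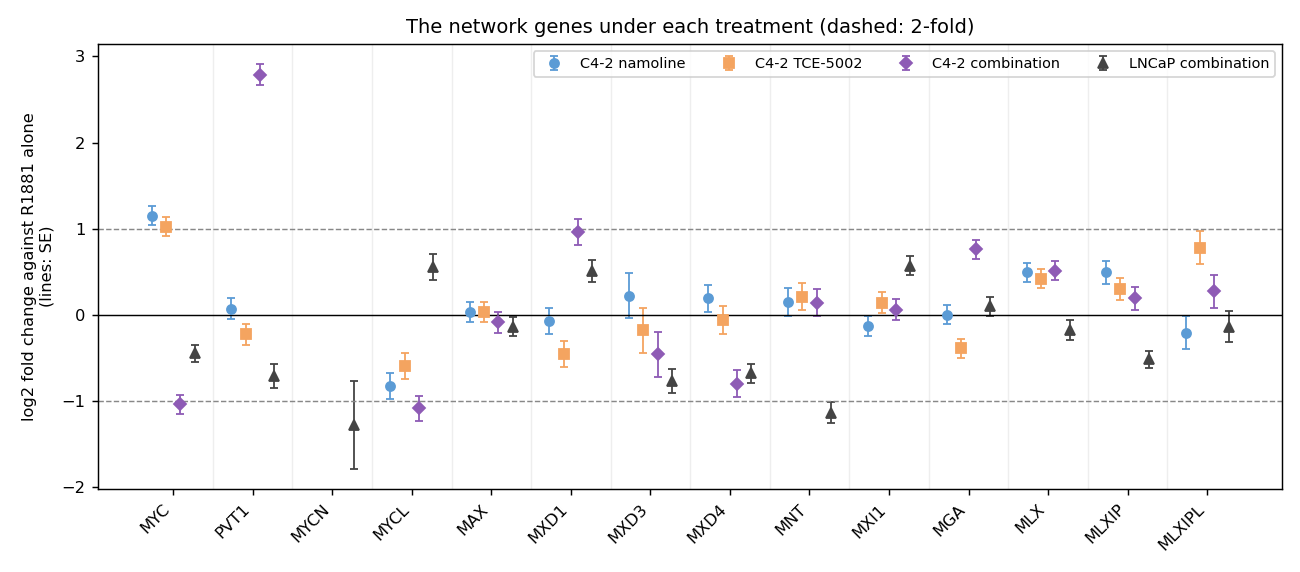
Log2 fold change against R1881 alone (y axis, lines are SE) for the 9 genes and 5 further network genes (x axis) in the 3 C4-2 comparisons and in LNCaP. The dashed lines mark 2-fold, MYCN has no C4-2 value, PVT1 in the C4-2 combination at 2.79 is a description, and MYC is the only gene with both single treatments above 1 and the combination below -1.

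Past the threshold, namoline called 1 of the 8 members that passed the filter (MYC, higher), against 12.1% of all 17702 genes tested (5.17% higher). TCE-5002 called 1 of 8 (MYC again, higher), against 11.8% (5.04% higher). The combination called 2 of the 7 members other than PVT1, MYC and MYCL, both lower, against 21.7% of all genes (12.8% lower). Against namoline the combination called MXD1 higher and MYC lower (27.5% of all genes), and the same genes were called against TCE-5002 (26.1%) and in the interaction (35.3%). In LNCaP the combination called 2 of 9, MYCN and MNT, both lower, against 18.7% of 17565 genes (11.3% lower). By the adjusted p alone 2 of 8 members passed with namoline (35.0% of all genes), 3 of 8 with TCE-5002 (36.5%), 4 of 7 with the C4-2 combination (50.3%) and 8 of 9 in LNCaP (56.2%). The difference in effect between the lines called MNT and MYCL among 8 members (25.3% of 19763 genes), and the R1881 levels of the lines called MYC and MYCN among 9 (50.5%). The members' share was higher than the background in LNCaP by the adjusted p alone and lower for the R1881 levels past the threshold, and with 7 to 9 members these shares are imprecise.

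The MXD genes encode MAX partners that recruit the SIN3 corepressor. MXD1, linked to the exit of cells from the cycle and differentiation, measured 14.8 and 13.3 CPM in C4-2 with R1881, 13.0 and 14.1 CPM with namoline, 10.9 and 9.59 CPM with TCE-5002, and 28.8 and 27.0 CPM with the combination. The combination libraries stood above the other 6 C4-2 libraries. The log2 fold change of 0.96 (SE 0.15, adjusted p = 9.15e-05) was 1.95-fold, just under the limit, and was 1.05 without C4-2 R1881 replicate 1 and 1.02 without C4-2 combination replicate 2. It was past the limit against namoline (1.03, adjusted p = 3.52e-05; 0.97 after GC correction and 0.98 without C4-2 combination replicate 1) and against TCE-5002 (1.42, adjusted p = 2.11e-06), with an interaction of 1.49 (SE 0.21, adjusted p = 3.68e-05). MXD1 in the libraries labelled LNCaP went from 18.6 and 18.8 CPM to 25.0 and 26.1 CPM (0.51, adjusted p = 0.00157; 0.54 without combination replicate 1). The effects in the lines differed by 0.40 (adjusted p = 0.0584), which did not pass the threshold.

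MXD4 was lower, not higher, with the combination. It measured 87.2 and 90.5 CPM in C4-2 with R1881, 91.8 and 113.4 CPM with namoline, 69.2 and 101.1 CPM with TCE-5002, and 47.8 and 56.0 CPM with the combination. The combination pair was the lowest, and the TCE-5002 replicates spread on both sides of the controls. The change of -0.80 (SE 0.16, adjusted p = 9.45e-04) in C4-2 and of -0.68 (SE 0.11, adjusted p = 2.98e-06) in LNCaP were both under the fold limit, and they differed by -0.17 (95% interval -0.46 to 0.12, adjusted p = 0.336). In LNCaP the levels went from 99.3 and 112.4 CPM to 68.6 and 58.3 CPM, and the change was -0.80 without combination replicate 1.

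MXD3 ranged from 7.46 to 17.5 CPM over the C4-2 libraries, with overlapping groups under each inhibitor alone and no change past the adjusted p against R1881. In LNCaP it went from 25.0 and 22.2 CPM to 12.8 and 13.6 CPM (-0.77, SE 0.14, adjusted p = 2.91e-05; -0.74 without combination replicate 1). Of its exon bases 40.43% are shared with RAB24 and PRELID1, so its counts are uncertain.

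MNT, a MAX partner that is present throughout the cell cycle and opposes MYC, measured 35.1 and 38.5 CPM in C4-2 with R1881 and 40.8 and 41.8 CPM with the combination. All 8 C4-2 libraries lay between 34.9 and 49.9 CPM, and the log2 fold change with the combination was 0.14 (95% interval -0.19 to 0.48, adjusted p = 0.466). In LNCaP it fell with the combination from 56.7 and 55.8 CPM to 23.1 and 25.8 CPM (-1.14, SE 0.12, adjusted p = 1.24e-09; -1.07 without combination replicate 1). The effects differed by 1.23 between the lines (SE 0.14, adjusted p = 1.9e-07; 1.14 without LNCaP combination replicate 1). MNT shares 12.2% of its exon bases with ENSG00000262456 on the other strand, and counting did not use strand. MNT transcripts are rich in GC (61.4%). After GC correction the LNCaP change was -0.72 and the difference 0.85, both still past the adjusted p but under the fold limit. The difference between replicates followed GC content over genes with a Spearman rho of 0.45 in the LNCaP combination, -0.64 in C4-2 with TCE-5002, -0.38 with R1881 and -0.34 with namoline, and between -0.15 and 0.14 in the other 2 groups.

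**Figure D3:**
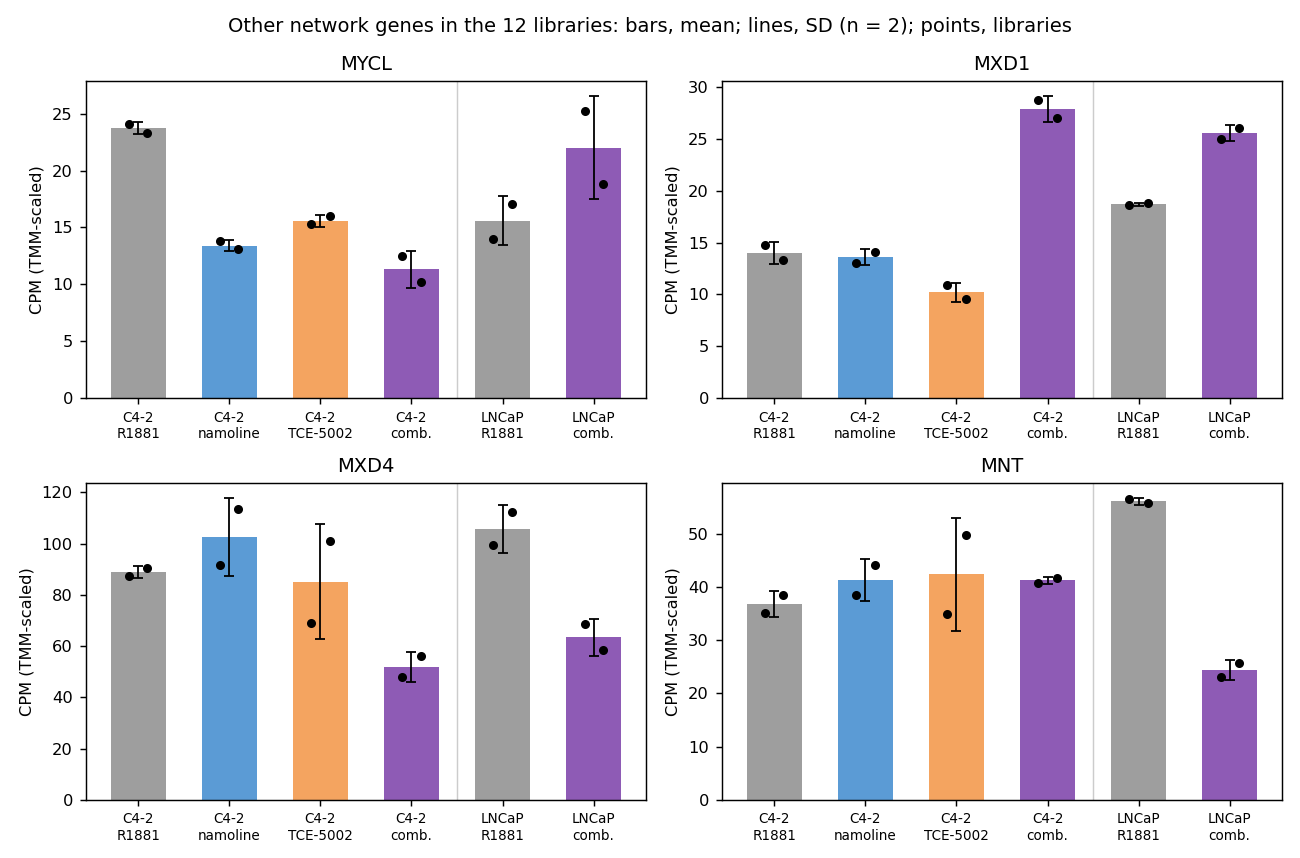
MYCL, MXD1, MXD4 and MNT in CPM for the 6 groups, with bars for the mean, lines for the SD of 2 libraries and points for the libraries. In the C4-2 combination MXD1 is highest (27.0 and 28.8 CPM) and MXD4 lowest (47.8 and 56.0 CPM), MYCL is low in all treated C4-2 groups, and MNT is lowest in the LNCaP combination (23.1 and 25.8 CPM).

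The promoters of 4 genes are shown because MXD1 was higher and MXD4 lower with the combination in both lines, MNT fell in LNCaP, and RRP9 (below) rose in all 3 C4-2 treatments. Each is the RefSeq sequence (GRCh38.p14) from 250 bases before the start to 30 bases from it on, read on the gene's strand. Capitals mark CACGTG, the E-box letters that MYC and MAX bind, which read the same on both strands. The windows are chr4:2262080-2262359 (minus) for MXD4, chr17:2401031-2401310 (minus) for MNT, chr2:69914859-69915138 (plus) for MXD1 and chr3:51941875-51942154 (minus) for RRP9.
MXD4: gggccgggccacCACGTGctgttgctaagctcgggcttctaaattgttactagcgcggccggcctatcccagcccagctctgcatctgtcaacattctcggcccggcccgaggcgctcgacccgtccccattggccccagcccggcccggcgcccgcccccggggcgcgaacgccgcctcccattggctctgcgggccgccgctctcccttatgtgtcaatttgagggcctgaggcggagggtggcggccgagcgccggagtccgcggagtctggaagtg
MNT: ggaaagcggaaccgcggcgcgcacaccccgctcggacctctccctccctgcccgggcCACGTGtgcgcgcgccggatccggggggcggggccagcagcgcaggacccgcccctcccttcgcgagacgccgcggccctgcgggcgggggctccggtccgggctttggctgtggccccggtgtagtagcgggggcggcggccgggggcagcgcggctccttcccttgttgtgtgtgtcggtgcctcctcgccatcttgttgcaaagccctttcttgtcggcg
MXD1: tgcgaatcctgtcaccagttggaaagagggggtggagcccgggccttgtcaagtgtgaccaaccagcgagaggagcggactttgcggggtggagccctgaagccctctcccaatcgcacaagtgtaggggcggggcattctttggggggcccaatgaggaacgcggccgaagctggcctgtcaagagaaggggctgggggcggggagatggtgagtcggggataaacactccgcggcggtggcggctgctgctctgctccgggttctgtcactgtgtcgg
RRP9: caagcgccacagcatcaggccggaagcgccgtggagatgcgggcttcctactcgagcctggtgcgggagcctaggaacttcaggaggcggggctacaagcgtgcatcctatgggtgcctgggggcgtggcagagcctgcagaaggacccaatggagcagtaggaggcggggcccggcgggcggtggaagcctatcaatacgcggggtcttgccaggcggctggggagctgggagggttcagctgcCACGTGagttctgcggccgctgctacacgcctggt

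MXD4, MNT and RRP9 each hold 1 E-box in this window, beginning 238, 193 and 5 bases before the start, and MXD1 holds none. The RefSeq start used for MXD1 lies 17.4 kb inside the span given in the deposited annotation. Of the 12 network genes with an entry 3 hold the letters (MXD4, MNT and MLX), against 8.42% of all 27305 genes with an entry. The letters are a description, and binding was not measured.

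Of the 5 other network genes none passed the threshold against R1881 in C4-2 by edgeR. Over all genes 12.1% did so with namoline, 11.8% with TCE-5002 and 21.7% with the combination. The adjusted p alone was passed by 2 for namoline (35.0% of all genes), by 3 for TCE-5002 (36.5%) and by 2 for the combination (50.3%). MGA, a large MAX partner that also belongs to a Polycomb complex, measured 110.6 and 110.4 CPM in C4-2 with R1881 and 184.1 and 196.9 CPM with the combination. The combination pair was the highest of the 12 libraries (0.76, SE 0.11, adjusted p = 4.02e-05), and the interaction was 1.15 (SE 0.15, adjusted p = 1.49e-05; 0.99 after GC correction). In LNCaP the change of MGA was 0.10 (adjusted p = 0.473; -0.02 without combination replicate 1), and the lines differed by 0.61 (adjusted p = 5.45e-04).

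MLX, the partner of the glucose-sensing MondoA and ChREBP proteins, was higher in all 3 C4-2 treatments without reaching 2-fold. It changed by 0.49 with namoline (adjusted p = 0.00251), 0.42 with TCE-5002 (adjusted p = 0.00656) and 0.51 with the combination (adjusted p = 0.00112). Of its exon bases 18.08% are shared with PSMC3IP on the other strand, so its counts are uncertain. MLXIP, which encodes MondoA, changed by 0.49 with namoline (adjusted p = 0.00773) and 0.19 with the combination (adjusted p = 0.233). MLXIPL, which encodes ChREBP, changed by 0.78 with TCE-5002 (adjusted p = 0.00538), where its libraries spread from 33.9 to 56.9 CPM (1.09 without C4-2 TCE-5002 replicate 1). MXI1, an MXD relative, was level in C4-2 (0.06 with the combination, adjusted p = 0.693) and changed by 0.57 in LNCaP (adjusted p = 4.97e-05; 0.61 without combination replicate 1).

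Genes that MYC is known to induce were read from a list of 32, most of them in ribosome production. With namoline 7 rose past the threshold (5.17% of all genes did) and 0 fell. A positive log2 fold change was seen for 29 of 32, and the median was 0.64, beside 0 over all genes tested. After GC correction 5 rose and the median was 0.63. With TCE-5002 4 rose (5.04% of all genes) and 0 fell, with a median of 0.40 beside 0. After GC correction 3 rose and the median was 0.28. With the combination 1 rose and 0 fell (21.7% of all genes passed either way), with a median of 0.17 beside -0.03, although MYC itself had fallen. These 3 comparisons share the same R1881 libraries. For the combination, the median of the list against namoline was -0.50 (0 higher and 5 lower, 3 after GC correction), where 27.5% of all genes passed. Against TCE-5002 it was -0.14 (0 higher and 4 lower, 3 after GC correction), where 26.1% passed. After GC correction these medians were -0.44 and -0.03. Over all genes, without that correction, the median was -0.04 in both comparisons. The interaction passed the threshold in 15 of 32, negative in 14 (9 after GC correction) and positive in 1, against 35.3% of all genes.

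Among single targets, chosen after their values were seen, the nucleolar protein gene NOP56 changed by 1.12 with namoline and -0.12 with the combination, MYBBP1A by 1.23 and 0.60, and the lactate dehydrogenase gene LDHA by 1.09 with TCE-5002 and -0.97 with the combination. RRP9, which encodes a component of the U3 nucleolar particle, was named by the rule on genes to be named. It measured 15.8 and 16.0 CPM with R1881, 33.1 and 37.9 CPM with namoline, 31.6 and 40.1 CPM with TCE-5002 and 35.9 and 37.8 CPM with the combination, so all 6 treated libraries stood above the controls (1.18 with the combination). TERT, the catalytic subunit of telomerase, had 8 and 6 counts with R1881, 103 and 142 with namoline, 76 and 123 with TCE-5002 and 17 and 7 with the combination. TERT was thus high under each inhibitor alone, at log2 fold changes of 4.22 and 3.76, and at 0.86 under both.

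**Figure D4:**
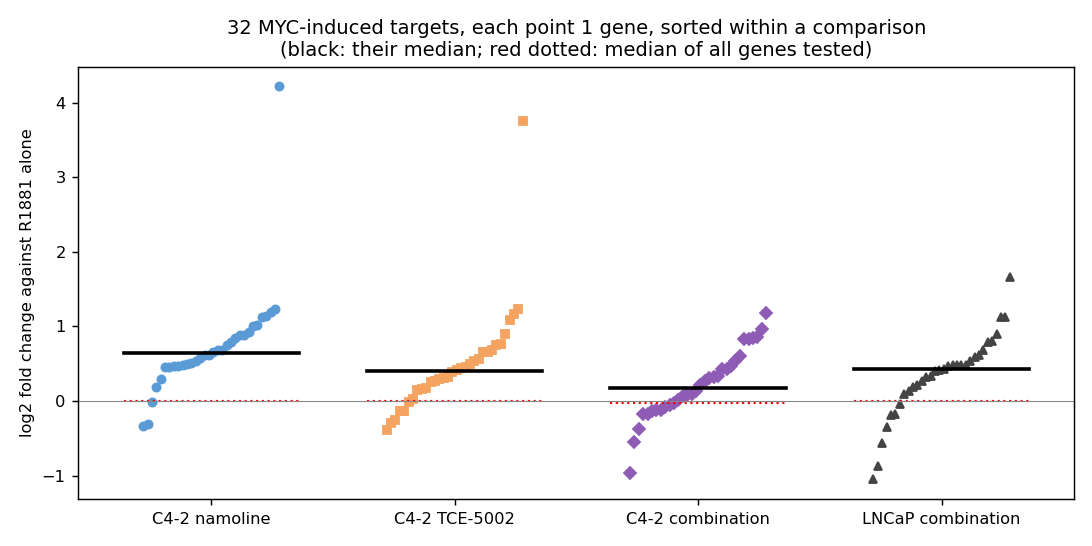
Log2 fold change against R1881 alone (y axis) of the 32 MYC-induced targets in each comparison, 1 point a gene, sorted, with the list's median in black and that of all genes tested dotted in red. The medians are 0.64 with namoline, 0.40 with TCE-5002, 0.17 with the C4-2 combination and 0.43 with the LNCaP combination, and TERT is the high point in both single treatments.

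In the libraries labelled LNCaP the combination raised 3 of the 32 past the threshold and lowered 1 (18.7% of all genes passed either way), with a median of 0.43 beside 0, while MYC fell 1.37-fold. Those raised were NPM1 (nucleophosmin, 1.66), GNL3 (nucleostemin, 1.13) and TERT (1.12), and PPAN, a ribosome assembly gene, was lowered (-1.05). GC correction brought GNL3 to 0.95 and PPAN to -0.55, PPAN was at -0.85 without LNCaP combination replicate 2, and TERT was at 0.97 without replicate 1. Without LNCaP combination replicate 1 the list's median was 0.33, with 2 higher (NPM1 at 1.78 and GNL3 at 1.23) and 1 lower (PPAN at -1.28). An E-box lay in the promoter window of 14 of the 28 induced targets with an entry, 50.0%, against 8.42% of all genes with one. It lay in 0 of 4 MYC-repressed targets with an entry, too few to be told from that share. The induced genes were listed as known MYC targets, so their share is no independent sign of MYC action in these cells. The genes it is set against were not limited to those expressed here.

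Of 7 genes that MYC is known to repress, the combination in C4-2 raised CDKN1A and GADD45A and lowered NDRG1, where 21.7% of all genes passed the threshold. CDKN1A, which encodes the cell cycle inhibitor p21, measured 58.1 and 74.3 CPM with R1881 and 1454.9 and 1544.0 CPM with the combination, a log2 fold change of 4.48, with 240.0 and 182.2 CPM under namoline and 92.2 and 101.6 CPM under TCE-5002. GADD45A, a growth arrest gene, measured 55.5 and 51.8 CPM with R1881 and 406.2 and 426.6 CPM with the combination (2.93), and lay below the controls with namoline (-1.44). NDRG1, an androgen-responsive gene, changed by -1.16. The list's median against R1881 was -0.97 with namoline (1 higher and 3 lower past the threshold, against 12.1% of all genes). It was 0.22 with TCE-5002 (0 higher and 1 lower, against 11.8%) and 0.28 with the combination. Over all genes the medians were 0, 0 and -0.03. The list's median for the combination was 1.35 against namoline (4 higher and 1 lower, 27.5% of all genes) and 0.80 against TCE-5002 (3 higher and 3 lower, 26.1%), each beside -0.04. With 7 genes these shares are imprecise. MYC was higher with both single treatments, whereas the medians of these 7 genes stood on opposite sides of 0. In LNCaP only CDKN1C passed the threshold (-1.96), at 10 and 23 counts in the combination, where 18.7% of all genes passed. The list's median there was -0.62 beside 0. Without combination replicate 1 the change of CDKN1C was -1.60 and the list's median -0.55.

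Genes that act on MYC protein were read as a list of 15. The combination in C4-2 raised FBXW7, the substrate receptor of a ligase that marks MYC for breakdown, from 18.4 and 17.4 CPM to 43.0 and 41.9 CPM (1.22). It raised USP36, a deubiquitinase of MYC, from 80.4 and 90.7 CPM to 218.7 and 236.7 CPM (1.39). It lowered PLK1 (-2.22), AURKA (-1.73) and CIP2A (-1.12), which encode 2 mitotic kinases and a phosphatase inhibitor linked to stable MYC. PLK1 and AURKA were also lower with TCE-5002 (-1.97 and -1.27) but not past the threshold with namoline (-0.15 and -0.06). CIP2A was at -0.93 without C4-2 R1881 replicate 1. The list's median with the C4-2 combination was -0.09, beside -0.03 for all genes, of which 21.7% passed the threshold. In LNCaP none of the 15 passed the threshold by edgeR (18.7% of all genes did), and 10 passed the adjusted p alone (56.2%). Without LNCaP combination replicate 1, FBXL14, which encodes a ubiquitin ligase subunit, was past the threshold (-1.27, adjusted p = 4.88e-15, against -0.94 with it).

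Of 14 MYC cofactors 1 passed the threshold in the C4-2 combination, against 21.7% of all genes, and 10 passed the adjusted p alone, against 50.3%. RUVBL1, an ATPase of chromatin remodelling complexes, went from 113.7 and 108.3 CPM with R1881 to 51.9 and 45.5 CPM, below all other C4-2 libraries (-1.21), and was at 161.1 and 166.6 CPM with namoline. In LNCaP the combination called 1 of the 14 higher and 1 lower, against 18.7% of all genes. It lowered CDK9, the kinase of the elongation factor P-TEFb (-1.45, and -1.56 without combination replicate 1). It raised ACTL6A, a remodelling complex subunit (1.32, and 1.39 without that library). Of 17 SIN3 corepressor genes 0 passed the threshold in the C4-2 combination by edgeR (21.7% of all genes), and 8 passed the adjusted p alone (50.3%). In LNCaP 0 of the 17 were called higher and 1 lower, against 18.7% of all genes. The gene called was ING1 (-1.42, and -1.46 without combination replicate 1). RBBP7 was at 1.05 there without that library, against 0.95 with it. Of the 5 miRNA genes hosted by PVT1 3 were matched by symbol, and none passed the filter on low counts.

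Within 2000000 bases of the start of MYC, 56 further genes were listed and 8 passed the filter in C4-2. With the combination 3 fell past the threshold and 1 rose, where 21.7% of all genes passed and 12.8% were lower. PCAT1, a prostate cancer lncRNA well before MYC (-888.4 kb), went from 2.11 and 1.82 CPM to 0.511 and 0.751 CPM (-1.67, adjusted p = 0.00248), and was higher with namoline (1.17). POU5F1B fell from 1.5 and 1.56 CPM to 0.567 and 0.563 CPM (-1.45, adjusted p = 0.00958), a call lost without either combination library (adjusted p of 0.0537 and 0.0575). The unnamed ENSG00000254286 (-1.28) and the small nuclear RNA gene RNVU1-32 (1.27) rest on 34 counts or fewer per library and neither passed with DESeq2 (adjusted p of 0.0725 and 0.0924).

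LRATD2 was the only abundant gene among the 8, at 133.6 and 134.4 CPM with R1881 and 77.4 and 83.3 CPM with the combination (-0.76, adjusted p = 4.83e-05), and it was also lower with each inhibitor alone. All 6 neighbours whose first annotated base lies before that of MYC had a negative log2 fold change with the combination, from -0.76 to -1.67. Of these, CASC8 (18 and 10 counts with R1881, 7 and 4 with the combination) and CASC11 (12 and 9, then 5 and 3) did not pass the adjusted p. All but LRATD2 had few counts, and a pattern along the locus was not tested. RNVU1-32 and LINC02912 (0.78, adjusted p = 0.284), which had positive values, start 263.7 and 213.3 kb after MYC, within the span of PVT1, and counting did not use strand. The LNCaP combination called 0 of the 3 neighbours tested there by edgeR (18.7% of all genes), and 0 passed the adjusted p alone (56.2%).

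**Figure D5:**
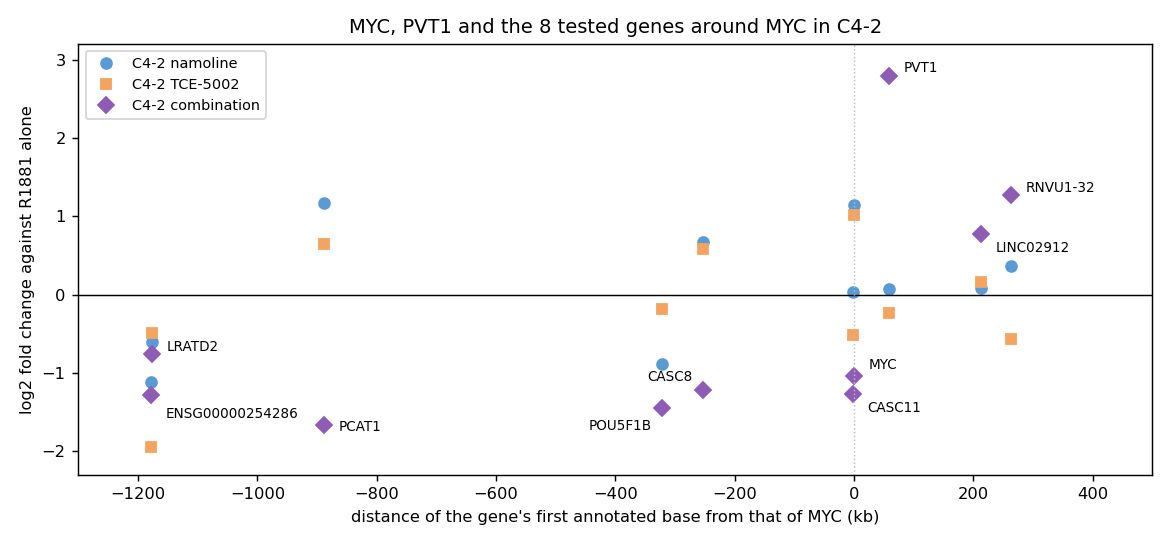
Log2 fold change against R1881 alone in C4-2 (y axis) of MYC, PVT1 and the 8 tested neighbours by the distance in kb of their first annotated base from that of MYC (x axis). The combination values lie between -0.76 and -1.67 for the genes before MYC, at -1.04 for MYC, and above 0 for PVT1 (2.79) and the 2 genes inside its span. Those of CASC8, CASC11 and LINC02912 did not pass the adjusted p.

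Likeness to each gene was read as the Pearson r of log2 CPM over the 8 C4-2 libraries among 10491 genes with at least 10 CPM in a group mean, as a description. The genes most like PVT1 were SIPA1L2 (0.998), CRY2 (0.998), TUFT1 (0.997), TPM4 (0.997) and GSN (0.997), all of them high in the combination. SIPA1L2 went from 49.3 ± 1.99 CPM with R1881 to 688.8 ± 58.3 CPM, and CRY2, a circadian clock repressor, from 22.4 ± 0.372 to 67.3 ± 4.22 CPM. The genes most like MYC were IVD (0.999), CCND1 (0.998), TUBA3E (0.998), SHMT1 (0.996) and NUDT19 (0.996). CCND1, which encodes cyclin D1, was at 119.7 ± 8.7 CPM with R1881 and 255.1 ± 22.3 with namoline. It was at 250.7 ± 2.56 with TCE-5002 and 61.4 ± 3.8 with the combination. Its order of groups is that of MYC, which follows from its choice by likeness to MYC.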

How the data were processed

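Libraries of poly(A) RNA were read as pairs, trimmed and aligned by STAR (GRCh38) by the authors. They deposited raw counts per gene, which the file headers credit to featureCounts 1.5.0-p1 with Ensembl 83 annotation. No strand option was given, so a gene and its antisense partner cannot be told apart. Coordinates are those of the deposited files.

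Groups came from the library titles, since a protocol field describes siRNA work that does not match them. The study's methods call the replicates biological. The members and gene lists were chosen with earlier results of these data known. Genes were kept with filterByExpr, scaled by TMM and put to the two-sided quasi-likelihood test of edgeR 4.0.16 (R 4.3.3, limma 3.58.1) and adjusted by Benjamini-Hochberg over every gene in the fit (17702 in the fit of 8 C4-2 libraries, 17565 in that of 4 LNCaP libraries, 19763 in the fit across lines). SE was taken as the size of the log2 fold change divided by the root of its F. Past the threshold means an adjusted p under 0.05 with a log2 fold change of 1 or more either way. CPM were computed here from the deposited counts. The scripts were tested on simulated data.

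Named besides the members and 5 network genes were up to 3 genes rising and 3 falling most past the threshold per list in the C4-2 and LNCaP combinations, and the 5 genes most like PVT1 and MYC. Others were named after their values were seen. Alternatives were RLE scaling, no filter, the likelihood ratio test, DESeq2 1.42.0, a replicate block, a fit on the 4 libraries compared, each library left out, CPM on raw totals and, added after seeing the data, a correction for transcript GC content. Counts cover 12 libraries of 14791602 to 20690819, and precision is limited by 2 libraries per group. 1 luminal marker of the fixed list is not reported here.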

Additional observations from a re-analysis of the deposited data

Results flagged for a closer look

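The effect of an inhibitor differed with its setting by at least 2-fold for 6 network genes, each by a test of the difference unless stated. Apart from PVT1, the C4-2 interaction called 2 of 12 network genes higher and 1 lower, against 35.3% of all genes. The difference between the lines called 1 of 13 higher and 1 lower, against 25.3%. Neither share was above that of all genes. In C4-2 the effect of TCE-5002 on MYC was lower with namoline than without it by 3.21 on the log2 scale (-3.21, adjusted p = 2.67e-09, edgeR), with all libraries of each group on 1 side of the R1881 pair. The same difference was 1.49 for MXD1 (adjusted p = 3.68e-05) and 1.15 for MGA (adjusted p = 1.49e-05), and MGA was at 0.99 after GC correction.

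The combination effect in C4-2 minus that in LNCaP was -1.68 for MYCL (adjusted p = 6.75e-07) and 1.23 for MNT (adjusted p = 1.9e-07), and MNT was at 0.85 after GC correction. For PVT1 it was 3.45, which was not tested because PVT1 was chosen on the C4-2 libraries. Both C4-2 combination libraries lay above their controls and both LNCaP combination libraries below theirs.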

How the results depend on the processing

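The number of genes past the threshold stayed within 1.5 times its value in all 9 comparisons and under every alternative run. Leaving out 1 library gave 1486 to 2431 genes for namoline, 1484 to 2342 for TCE-5002, 3174 to 4262 for the C4-2 combination, 4216 to 5254 and 4050 to 4901 for the combination against namoline and TCE-5002, 5713 to 6592 for the interaction, 2851 to 3518 for the LNCaP combination, 4497 to 5246 for the difference between the lines and 9562 to 10581 for the R1881 levels. No log2 fold change past the threshold changed sign among the genes checked. Those were the members and the 5 other network genes in every comparison, and the genes named by rule from the lists in the C4-2 and LNCaP combinations. RLE scaling moved the median of all genes by at most 0.06.

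Replicates of the same number deviated together weakly or not at all (correlations of 0.09 to 0.19 among C4-2 with R1881, namoline and TCE-5002, and of -0.02 to 0.02 in the other 4 pairs of groups), and the labels tie no number to a batch. With the replicate block the counts were 3871 against 3834 genes for the C4-2 combination and 3062 against 3293 for LNCaP. The block took MYCN in LNCaP to an adjusted p of 0.0551 and changed no other call among the genes checked.

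With 2 libraries per group, calls near 2-fold turn on 1 library, as given beside MYC, MYCL and MXD1, and leaving 1 out assumes that the lone library varies like the others. MYCN and the low neighbours of MYC are limited by depth.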
